A study of Mus musculus with 20 samples.

Results

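The BCL2 family decides whether a cell keeps or permeabilizes the outer membrane of its mitochondria, and 10 of its genes and of the related mitophagy receptors were followed in microglia, the resident macrophages of the brain. The genes were selected by symbol, with earlier results of these data known, and all 10 were found among the 21315 gene symbols listed. They were Bcl2, Bcl2l1, Mcl1 and Bcl2a1b among the survival genes, Bax and Bak1 among the effectors, Bid and Bcl2l11 among the BH3-only genes, and Bnip3 and Bnip3l among the mitophagy receptors.

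Total RNA was sequenced from sorted brain microglia of C57BL/6 mice at 9 months of age, in 20 libraries from 6 groups. The APP-KI allele (NL-G-F) is an edit of the endogenous App gene that humanizes the Aβ stretch and adds familial Alzheimer's disease mutations, and C3aR-KO mice lack a functional C3ar1, the gene of the receptor for complement fragment C3a. In the first experiment, C3aR-positive microglia were sorted by a Td-tomato reporter inserted at C3ar1 (a line that is also C3ar1 fl/fl, whose zygosity in each library is not given in the sources used here), from WT mice (3 libraries) and APP-KI mice (3 libraries) that both carried the reporter. In the second, microglia were sorted without selection on C3aR from WT (3 libraries), APP-KI (3), C3aR-KO (3) and APP-KI; C3aR-KO mice (5), the last called combined mutants here. The C3aR-KO is germline, so C3ar1 was lost in all cells of these mice and not in microglia alone. Mice of both sexes were used in the study and the sex of each library was not analysed here. Nothing in the labels says whether libraries of a group came from separate mice, so the p-values below measure only the spread between libraries.

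In healthy cells the survival proteins BCL-2, BCL-xL (Bcl2l1), MCL-1 and A1 (the Bcl2a1 copies) bind and restrain BAX and BAK, which otherwise form pores in the outer mitochondrial membrane and release cytochrome c. BH3-only proteins such as BIM (Bcl2l11) and BID start this step, BIM by binding the survival proteins and BID after cleavage by caspase-8. BNIP3 and NIX (Bnip3l) are relatives with a BH3-like segment that sit on mitochondria, bind LC3 proteins and hand the organelle to autophagy, and both genes are classical targets of hypoxia-inducible factor (HIF). Microglia are also known to depend on signalling through CSF1R for survival.

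The promoters of the 4 genes that rose with APP-KI in C3aR-positive microglia (below) are shown because the transcript of Hif1a was measured beside them. Each run is 300 bases, from 250 before to 50 after the RefSeq start on GRCm38.p6, and capitals mark the HIF core letters ACGTG or GCGTG on either strand, where the palindrome CACGTG counts once on each strand. Bcl2l1 has 3 listed starts, of which the second is shown.
Bnip3 (chr7:138909457-138909756, minus strand): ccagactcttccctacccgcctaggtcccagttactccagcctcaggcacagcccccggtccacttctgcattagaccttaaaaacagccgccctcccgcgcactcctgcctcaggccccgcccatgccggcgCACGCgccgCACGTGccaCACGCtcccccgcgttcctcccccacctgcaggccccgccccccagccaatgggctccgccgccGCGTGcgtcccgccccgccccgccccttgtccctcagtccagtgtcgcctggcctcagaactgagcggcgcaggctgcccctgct
Bcl2 (chr1:106714241-106714540, minus strand): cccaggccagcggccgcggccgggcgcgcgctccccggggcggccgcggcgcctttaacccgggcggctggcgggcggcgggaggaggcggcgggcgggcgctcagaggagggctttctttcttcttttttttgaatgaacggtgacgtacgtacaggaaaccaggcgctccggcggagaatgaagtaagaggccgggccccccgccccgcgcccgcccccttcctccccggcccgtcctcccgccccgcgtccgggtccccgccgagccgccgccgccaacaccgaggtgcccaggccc
Bcl2l1 (chr2:152830668-152830967, minus strand): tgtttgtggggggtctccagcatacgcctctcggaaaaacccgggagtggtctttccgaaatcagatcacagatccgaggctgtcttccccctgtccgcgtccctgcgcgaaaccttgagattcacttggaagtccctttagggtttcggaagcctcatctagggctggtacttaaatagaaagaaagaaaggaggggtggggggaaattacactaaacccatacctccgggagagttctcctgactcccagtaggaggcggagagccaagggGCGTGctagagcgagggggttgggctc
Bcl2a1b (chr9:89199023-89199322, plus strand): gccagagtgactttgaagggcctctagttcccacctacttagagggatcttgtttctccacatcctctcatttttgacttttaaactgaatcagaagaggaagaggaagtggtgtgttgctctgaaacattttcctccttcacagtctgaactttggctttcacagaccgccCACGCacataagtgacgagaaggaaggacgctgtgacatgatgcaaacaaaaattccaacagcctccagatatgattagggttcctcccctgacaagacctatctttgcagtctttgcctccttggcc

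The Bnip3 window held 5 matches, at -117, -108, -107, -99 and -35 from the start. The Bcl2 window held none. Bcl2a1b held 1 match, at -78, and the Bcl2l1 window shown held 1, at 24. The window of the first listed Bcl2l1 start held none, and that of the third held 1, at -86. Of 32851 RefSeq promoters of this length, 43.8% held at least 1 of these cores, 19.6% ACGTG and 32.4% GCGTG, so the letters are common. Among the other genes with a promoter entry, Bax held 4 matches (-9, -8, 36 and 37) and Bcl2l11 held 3 at the first of its 2 starts, while Mcl1, Bak1 and Bid held none. The FOXO letters TGTTTAC, present in 3.65%, occurred in Bcl2l11 at -227. A match is a description of the letters and not a measured binding site, and promoters were found for 9 of the 10 genes.

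Values are given on 1 scale. The deposited value was a read count divided by the library's own upper quartile, and multiplying all libraries by the same constant, 35.1, put the mean library total on the scale of CPM, so a scaled value is near a CPM. Total reads ran from 13939559 to 76608464 per library. All 7 microglial markers used for the check (Cx3cr1, P2ry12, Tmem119, Csf1r, Itgam, Aif1 and Fcrls) averaged at least 1 in every group, and their summed scaled value ranged from 6445 to 23084. The sum was lower in APP-KI than in WT without overlap, at 11623 to 15410 against 18190 to 19985 in the C3aR-positive sort and 7901 to 16194 against 21390 to 23084 in the unselected one, and its part in the differences below was not tested. C3ar1 itself was at 275 to 339 in WT microglia and at 39.8 to 80.2 across the 8 C3aR-KO and combined mutant libraries, so reads remained at the knockout locus. In C3aR-positive microglia it was at 37.5 to 81.0 in WT, a range that overlapped the knockouts, and at 201 to 382 in APP-KI. Both of these groups carried the reporter allele, and its part in these levels was not tested.

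Several libraries stood apart. In 4 of them, APP-KI replicate 4, C3aR-KO replicates 1 and 2 and combined mutant replicate 1, between 12386 and 13249 genes were listed above 0 although 42239056 to 69483570 reads were counted, whereas the other 16 listed 14885 or more. APP-KI replicate 5 listed 21210, against at most 17445 in the remaining 15. These 5 libraries belonged to 1 of the 2 library name series of the unselected sort, so the comparisons of unselected microglia are given with and without the 4 libraries that listed under 14000 genes. Leaving them out was decided after the values were seen, and it left 1 C3aR-KO library, whose spread was then taken to equal that of the other groups.

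Levels of the genes were compared per kilobase of exon. Mcl1 was the highest in every group, with a mean scaled value of 126 to 143 per kilobase, followed by Bcl2l1 at 31.4 to 53.2 per kilobase. Bnip3l averaged 16.0 to 23.6 per kilobase, Bax 8.57 to 14.8, Bcl2l11 9.80 to 11.7 and Bak1 9.34 to 11.7. Bcl2 was the lowest in the 2 WT groups, at 1.79 ± 0.385 (SD, n = 3) per kilobase in C3aR-positive WT and 1.65 ± 0.217 (SD, n = 3) in unselected WT microglia.

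**Figure D1:**
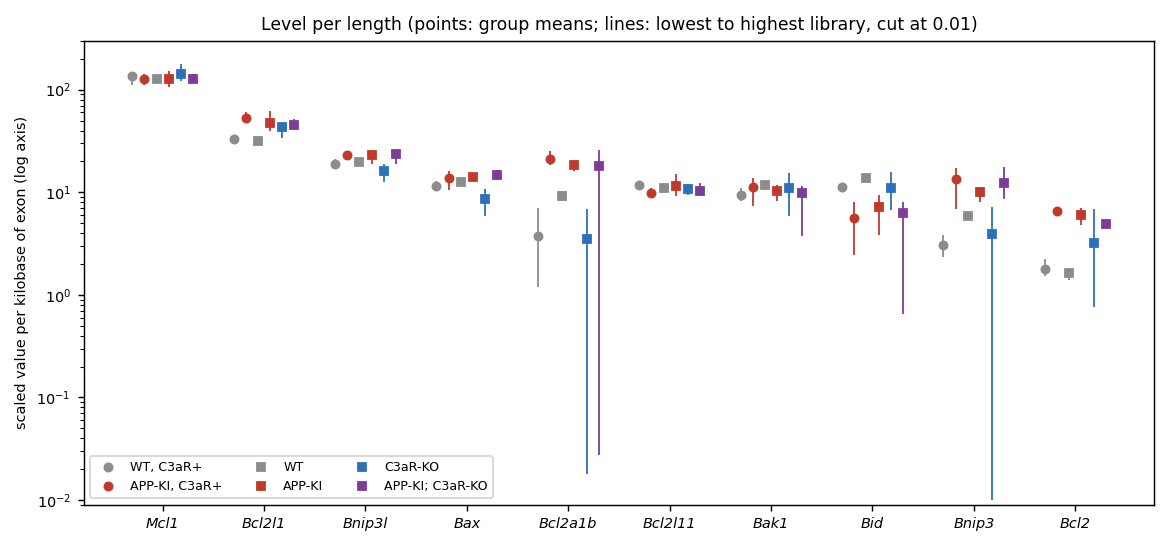
Scaled value per kilobase of exon (log axis) for each gene in the 6 groups, with points for group means and lines from the lowest to the highest library. Mcl1 lies at 126 to 143 in every group, and Bcl2 at 1.65 to 1.79 in the 2 WT groups and 4.87 to 6.64 in the 3 groups with APP-KI.

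In C3aR-positive microglia, APP-KI was set against WT to ask which of these genes differ when amyloid pathology is present. Bcl2, Bcl2l1, Bcl2a1b and Bnip3 were higher, by 3.59-fold, 1.61-fold, 5.06-fold and 3.76-fold on the log2(scaled value + 1) scale, and none of the 10 genes was significantly lower. In limma, 22.7% of 12311 genes passed an adjusted p of 0.05 (13% higher and 9.71% lower), beside 4 of these 10 genes. edgeR and DESeq2 also called 4 each, where they called 19.7% and 25.9% of all genes, and 5 genes had an unadjusted p under 0.05 in limma, against 37.6% of all genes. The groups did not overlap for 6 of the 10 genes, against 43.5% of all genes tested. The median log2 fold change was 0.25 over the 10 genes and -0.17 over all genes.

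Bcl2, the founding survival gene, was at 20.4, 14.96 and 13.9 in the 3 WT libraries and at 64.7, 55.0 and 62.8 in the 3 APP-KI libraries. Every APP-KI library was far above every WT library. The log2 fold change was 1.84 (SE 0.20, limma adjusted p = 0.00031). Bcl2l1, which encodes BCL-xL, was at 155, 153 and 144 in WT and at 277, 219 and 236 in APP-KI, again without overlap, and rose by 0.69 on the log2 scale (SE 0.12, limma adjusted p = 0.0032). Mcl1, the short-lived survival protein's gene, was at 508, 509.9 and 379.7 in WT and 383, 415 and 491 in APP-KI. These ranges overlapped, with a log2 difference of -0.11 (95% interval -0.45 to 0.23).

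Bcl2a1b, 1 of the mouse copies of the A1 survival gene, was at 5.78, 0.975 and 2.52 in WT and at 15.2, 20.6 and 16.4 in APP-KI, a log2 rise of 2.34 (SE 0.48, limma adjusted p = 0.0075). Its level is uncertain, because 57.6% of the 50-base words of its transcript occur in another Bcl2a1 copy and 49.1% of its exonic bases lie in the same-strand gene model Gm29094. Summed over the copies Bcl2a1a, Bcl2a1b and Bcl2a1d, the scaled value was 7.28 to 21.5 in WT and 25.3 to 54.8 in APP-KI, so the sum did not overlap either. Taken alone, Bcl2a1a (1.30, limma adjusted p = 0.098) and Bcl2a1d (0.79, limma adjusted p = 0.42) did not pass the test.

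The pore-forming effectors did not pass. Bax was at 17.0, 17.2 and 20.3 in WT and 23.2, 25.4 and 16.5 in APP-KI, and Bak1 at 26.3, 19.9 and 21.2 in WT and 31.0, 33.4 and 17.5 in APP-KI. For both genes the third APP-KI library, with the fewest reads of the 20 (13939559), lay below the other APP-KI and all WT libraries. The log2 differences were 0.23 for Bax (95% interval -0.34 to 0.79) and 0.23 for Bak1 (95% interval -0.39 to 0.85).

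The 2 BH3-only genes lay lower in APP-KI without passing the test. Bid, the link from caspase-8 to mitochondria, was at 37.3, 40.0 and 43.7 in WT and at 28.5, 22.6 and 8.63 in APP-KI, so the groups did not overlap, with a log2 difference of -1.13 (SE 0.37, limma adjusted p = 0.053). Without the first APP-KI library the Bid call passed, at a log2 difference of -1.45. Bcl2l11 was at 94.7, 94.0 and 93.7 in WT and at 75.5, 72.5 and 88.0 in APP-KI. All 3 APP-KI libraries were below the WT libraries, and the log2 difference of -0.26 (SE 0.13) had a limma adjusted p of 0.16.

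Bnip3, the mitophagy receptor gene, was at 8.60, 5.26 and 6.96 in WT and at 37.4, 38.9 and 15.6 in APP-KI. The lowest APP-KI library still exceeded the highest WT library, and Bnip3 rose by 1.91 on the log2 scale (SE 0.39, limma adjusted p = 0.0070). Its relative Bnip3l was at 81.1, 71.6 and 65.2 in WT and 97.6, 87.9 and 78.9 in APP-KI. The ranges overlapped, and the log2 difference was 0.28 (95% interval -0.04 to 0.59).

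**Figure D2:**
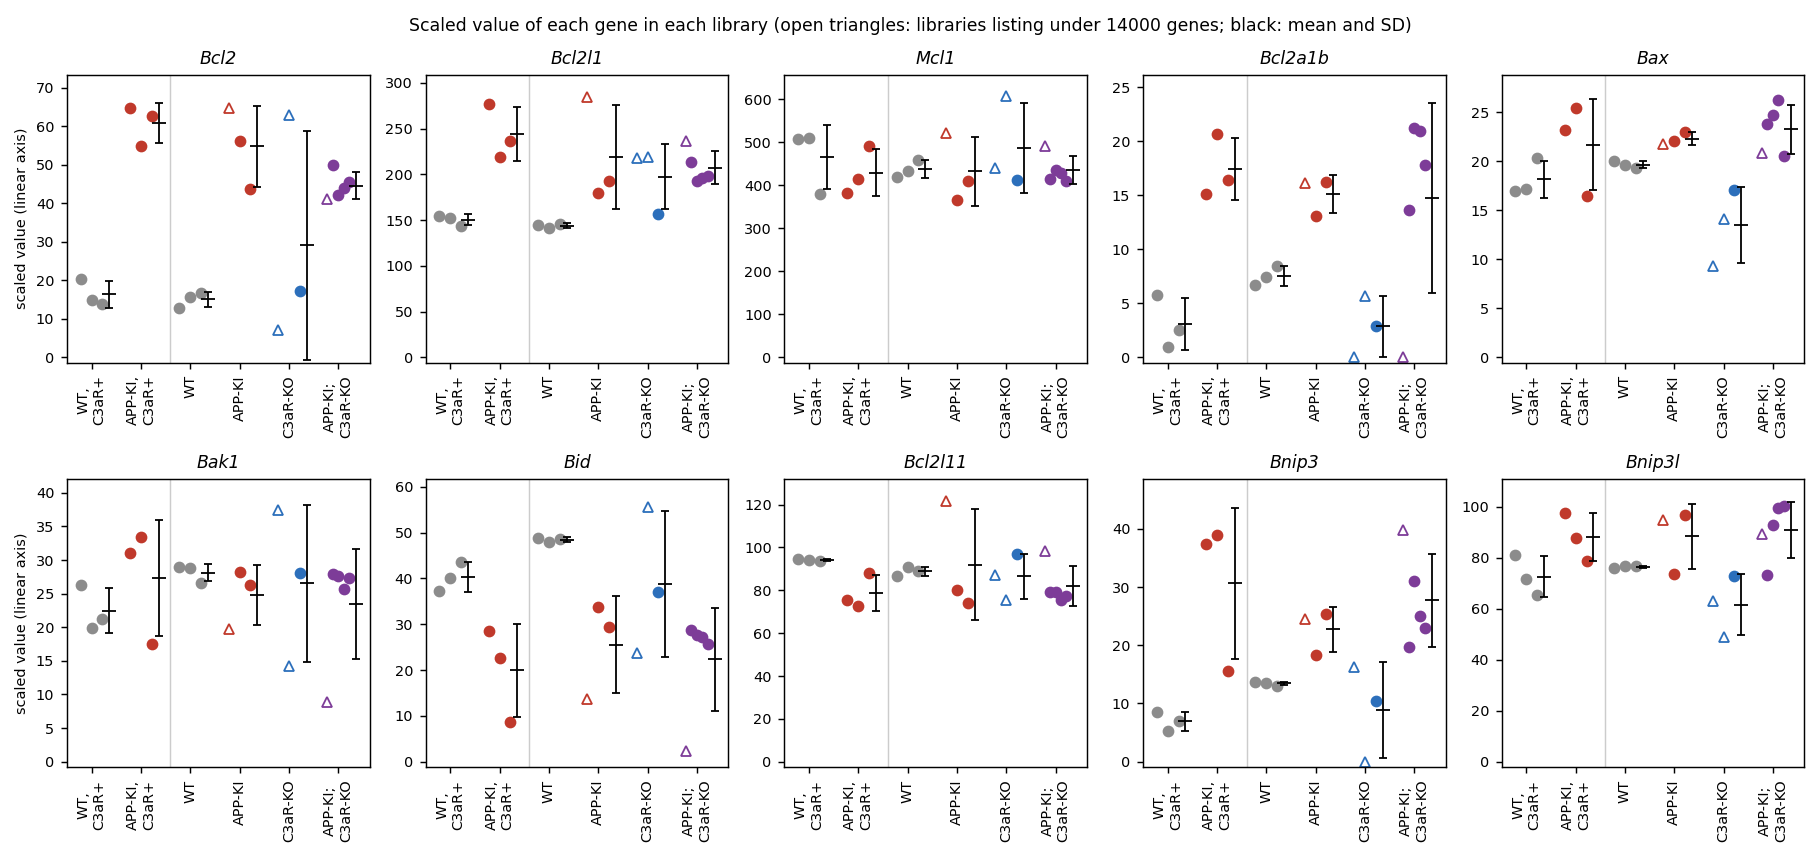
Scaled value of each gene (linear axis) in each of the 20 libraries, by group, with black marks for the mean and SD and open triangles for the 4 libraries listing under 14000 genes. Bcl2 is at 55.0 to 64.7 in C3aR-positive APP-KI against 13.9 to 20.4 in WT, and the open triangles are often the farthest from their group, as for Bid at 2.33 in combined mutant replicate 1.

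The same contrast in microglia sorted without selection on C3aR used other libraries, and limma with the library name series as a term called 4.14% of 12402 genes (2.22% higher and 1.93% lower) but none of these 10. At an unadjusted p under 0.05 there were 2, Bcl2 and Bcl2l1, against 12.4% of all genes, and edgeR called 0 and DESeq2 2 of the 10, beside 3.3% and 5.81% of all genes. The groups did not overlap for 6 of the 10 genes, against 29.3% of all genes tested. Without the 4 libraries, 6 of the 10 genes passed, where 27.9% of 12561 genes did so, and without APP-KI replicate 5 as well 5 of 10 passed, against 15.7% of 12132. The 4 higher genes were Bcl2, Bcl2l1, Bcl2a1b and Bnip3, each of which had also risen in C3aR-positive microglia, and Bid and Bcl2l11 were lower.

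Bcl2 was at 12.8, 15.8 and 16.6 in unselected WT and at 64.7, 56.1 and 43.7 in APP-KI, with a log2 difference of 1.75 (SE 0.51, limma adjusted p = 0.083) that became 1.65 (SE 0.14, limma adjusted p = 5.3e-05) without the 4 libraries. Every APP-KI library exceeded every WT library. Within the 2 library name series the difference was 2.15 and 1.38. Bcl2l1 was at 144, 141 and 146 in WT and at 285, 179.6 and 193 in APP-KI, and its log2 difference of 0.50 (SE 0.17) became 0.36 (SE 0.07, limma adjusted p = 0.0042) without them, the value 285 being that of replicate 4. Mcl1 again overlapped, at 419 to 460.0 in WT and 365 to 521 in APP-KI.

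Bcl2a1b was at 6.66, 7.43 and 8.49 in WT and at 16.2, 13.1 and 16.2 in APP-KI, and Bnip3 at 13.7, 13.6 and 13.1 in WT and 24.5, 18.4 and 25.4 in APP-KI. Neither gene's groups overlapped. Their log2 differences of 1.29 (SE 0.90) and 0.81 (SE 0.75) did not pass, in a fit that also held the C3aR-KO and combined mutant libraries. Neither gene passed in a fit of the 2 groups alone. Without the 4 libraries Bcl2a1b was 0.93 higher (SE 0.12, limma adjusted p = 0.00064) and Bnip3 was 0.69 higher (SE 0.15, limma adjusted p = 0.0086). The sum of the 3 Bcl2a1 copies ran from 14.6 to 26.1 in WT and 38.8 to 45.3 in APP-KI.

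Bid was at 48.9, 47.9 and 48.6 in WT and at 13.6, 33.8 and 29.3 in APP-KI, with a log2 difference of -0.78 (SE 0.65) that became -0.62 (SE 0.07, limma adjusted p = 0.00028) without the 4 libraries, among them the APP-KI library at 13.6. Bcl2l11 was at 86.7, 90.8 and 89.1 in WT and at 122, 80.2 and 74.0 in APP-KI. Replicate 4 alone was above the WT range and the other APP-KI libraries were below it, so that the log2 difference of -0.02 became -0.21 (SE 0.06, limma adjusted p = 0.036) without the 4 libraries and -0.26 (limma adjusted p = 0.054) without APP-KI replicate 5 as well. Bax lay between 19.3 and 20.1 in WT and 21.7 and 23.0 in APP-KI, a gap with no overlap and a log2 difference of 0.22 that passed neither with nor without those libraries. Bak1 and Bnip3l overlapped and did not pass in either fit.

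The APP-KI contrast was also made in mice lacking C3ar1, combined mutants against C3aR-KO, which shares no library with the 2 comparisons above. None of the 10 genes passed in limma, where 6.93% of 12402 genes did (3.96% higher and 2.98% lower), and 4 had an unadjusted p under 0.05, against 20.4% of all genes. edgeR called 1 and DESeq2 2 of the 10, beside 5.28% and 9.22% of all genes. The groups did not overlap for Bax, Bnip3 and Bnip3l, 3 of 10 genes beside 13.7% of all genes. Without the 4 libraries 8 of the 10 genes passed, where 31.3% of 12561 genes did, and without APP-KI replicate 5 as well 7 passed, against 34.3% of 12132. These fits rest on 1 C3aR-KO library.

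Bcl2 was at 7.002, 62.9 and 17.3 in the 3 C3aR-KO libraries, a spread wider than in any other group, and at a lowest of 41.3, a median of 43.9 and a highest of 50.1 in the 5 combined mutants. One knockout library exceeded all combined mutants and the other 2 were below them all. The log2 difference of 1.14 (SE 0.46, limma adjusted p = 0.17) became 1.32 (SE 0.17, limma adjusted p = 0.00060) without the 4 libraries. It rested on single knockout libraries, at 0.45 without C3aR-KO replicate 1 and 1.89 without replicate 2 (limma adjusted p = 0.0011). Bnip3 was at 16.2, 0 and 10.4 in C3aR-KO and at 39.8, 19.6, 31.0, 25.1 and 23.0 in the combined mutants. The 0 was 0 reads of 61843354 in replicate 2, which allows up to 3 reads by counting error alone. The Bnip3 log2 difference of 2.18 (SE 0.67, limma adjusted p = 0.067) became 1.21 (SE 0.18, limma adjusted p = 0.0014) without the 4, 1.00 without C3aR-KO replicate 2 alone and 2.98 without replicate 1 alone (limma adjusted p = 0.012).

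Bcl2a1b was represented by 1 read in C3aR-KO replicate 1 and 1 read in combined mutant replicate 1, and by scaled values of 5.65 and 2.93 in the other knockouts and 13.7, 21.3, 21.0 and 17.8 in the other combined mutants. In those 2 libraries the other Bcl2a1 copies were read, while in C3aR-KO replicate 2 Bcl2a1a and Bcl2a1d had 0 reads. The sum of the copies was 5.65 to 15.8 in C3aR-KO, lowest in replicate 2, and 21.9 to 50.8 in the combined mutants, without overlap. The log2 difference of Bcl2a1b was 1.54 (SE 0.80) in all libraries and 2.37 (SE 0.15, limma adjusted p = 1.9e-05) without the 4. Bcl2l1 was at 218, 219 and 156 in C3aR-KO and at 237, 214, 192, 196 and 198 in the combined mutants, overlapping groups whose log2 difference moved from 0.14 (SE 0.15) to 0.35 (SE 0.08, limma adjusted p = 0.014).

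Bax was at 9.31, 14.1 and 17.1 in C3aR-KO and at 20.9, 23.8, 24.7, 26.3 and 20.6 in the combined mutants, and its log2 difference of 0.73 (SE 0.23, limma adjusted p = 0.076) became 0.45 (SE 0.13, limma adjusted p = 0.025) without the 4 libraries. Bnip3l was at 63.1, 48.8 and 72.8 in C3aR-KO and at 89.2, 73.1, 92.9, 99.6 and 100.2 in the combined mutants, and its difference of 0.51 (SE 0.14, limma adjusted p = 0.051) became 0.38 (SE 0.12, limma adjusted p = 0.043). Bid was at 23.8, 55.6 and 37.0 in C3aR-KO and 2.33, 28.8, 27.6, 27.3 and 25.8 in the combined mutants. The other 4 combined mutants lay within 25.8 to 28.8, and the Bid log2 difference of -1.20 (SE 0.58) became -0.45 (SE 0.09, limma adjusted p = 0.0048). Bcl2l11, at 75.5 to 96.7 and 75.6 to 98.5, moved from -0.05 to -0.32 (SE 0.08, limma adjusted p = 0.014), while Mcl1 and Bak1 passed in neither fit.

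**Figure D3:**
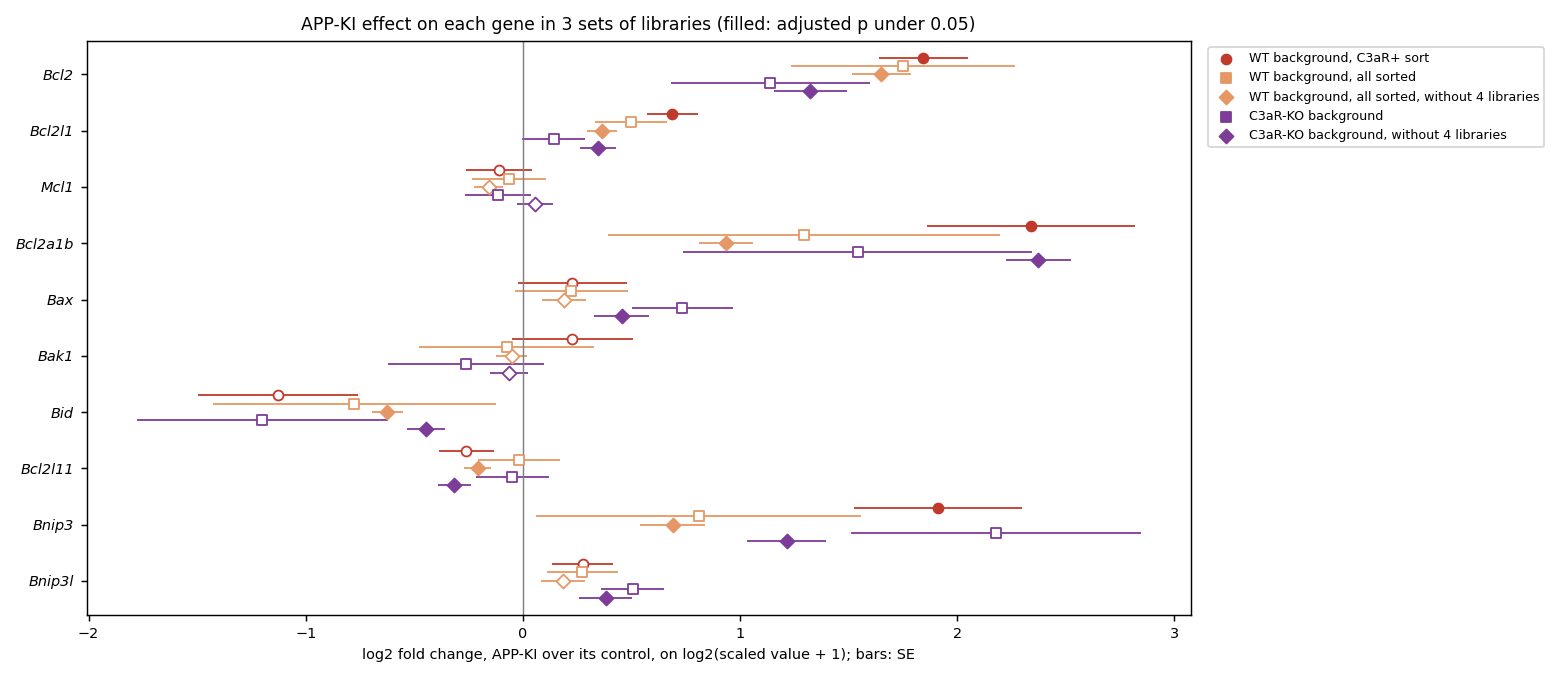
Log2 fold change of APP-KI over its control (bars, SE) for each gene in C3aR-positive microglia, in unselected microglia and in C3aR-KO mice, the last 2 also without the 4 libraries listing under 14000 genes, with filled symbols where the limma adjusted p was under 0.05. Bcl2 lies between 1.14 and 1.84 in every set, Mcl1 between -0.16 and 0.05, and Bid between -1.20 and -0.45.

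Loss of C3ar1 was compared next, in WT and in APP-KI mice. In C3aR-KO against WT, limma called 1 of 12402 genes (0.00806%) and none of the 10, with 1 at an unadjusted p under 0.05, Bcl2l1 (log2 difference 0.36, 95% interval 0.01 to 0.72), against 2.77% of all genes. edgeR (0.00806% of all genes called) and DESeq2 (0.0726%) also called none of the 10, nor did limma without the 4 libraries (0.0159%) or without APP-KI replicate 5 as well (0.00824%). Bcl2a1b was lower in each C3aR-KO library (0.0147, 5.65 and 2.93) than in each WT library (6.66 to 8.49). The sum of the 3 Bcl2a1 copies overlapped, however, at 5.65 to 15.8 in C3aR-KO and 14.6 to 26.1 in WT. For Bcl2a1b alone the log2 difference was -1.14 (95% interval -3.07 to 0.79). It was -1.23 (SE 0.16) without the 4 libraries, a fit with 1 C3aR-KO library. Bax and Bnip3l were also lower without overlap, at 9.31 to 17.1 against 19.3 to 20.1 and 48.8 to 72.8 against 75.9 to 76.7, and Bcl2l1 higher, and groups did not overlap for 18.5% of all genes. None of these 4 passed the test. The log2 differences of the others were 0.36 for Bcl2, 0.10 for Mcl1, -0.06 for Bak1, -0.18 for Bid, -0.08 for Bcl2l11 and -1.21 for Bnip3, whose 95% interval ran from -2.81 to 0.39. The 10 estimates without the 4 libraries lay between -1.23 (Bcl2a1b) and 0.22 (Bcl2).

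In combined mutants against APP-KI, limma called 1 of 12402 genes (0.00806%), none of the 10 in limma, edgeR or DESeq2, and none at an unadjusted p under 0.05, against 1.19% of all genes. No gene's groups were apart, against 1.61% of all genes. The 95% intervals of the log2 difference were -1.23 to 0.73 for Bcl2, -0.31 to 0.32 for Bcl2l1, -0.28 to 0.38 for Mcl1, -2.61 to 0.83 for Bcl2a1b, -1.26 to 1.59 for Bnip3 and -0.33 to 0.29 for Bnip3l. They were -0.48 to 0.51 for Bax, -1.02 to 0.52 for Bak1, -1.84 to 0.64 for Bid and -0.47 to 0.25 for Bcl2l11. The intervals of the well-measured genes Bcl2l1, Mcl1 and Bnip3l were thus within 0.4 of 0, and those of Bcl2, Bcl2a1b, Bid, Bak1 and Bnip3 left room for larger differences. Without the 4 libraries the estimates for all 10 genes lay between -0.17 (Bid) and 0.21 (Bcl2a1b), and none passed, where 0.00796% of all genes did (0.00824% without APP-KI replicate 5 as well).

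**Figure D4:**
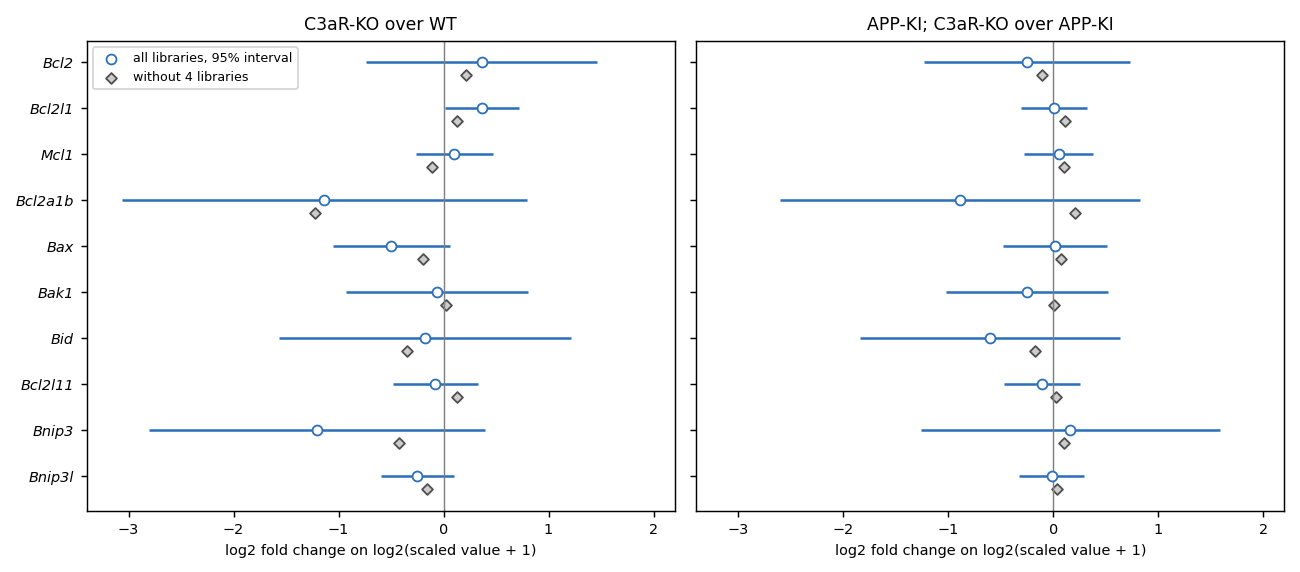
Log2 fold change of C3aR-KO over WT (left) and of APP-KI; C3aR-KO over APP-KI (right) for each gene, with lines for the 95% interval in all libraries and diamonds for the estimate without the 4 libraries listing under 14000 genes. All 10 intervals on the right include 0, and on the left the interval of Bcl2l1 (0.01 to 0.72) does not.

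The APP-KI effect was then compared with and without C3ar1 by an interaction term, which limma called for 0 of 12402 genes. None of the 10 genes had an unadjusted p under 0.05, against 1.64% of all genes, and neither edgeR nor DESeq2 called one. The interaction was -0.61 for Bcl2 (95% interval -2.12 to 0.90) and 1.37 for Bnip3 (95% interval -0.82 to 3.56). Without the 4 libraries these were -0.33 and 0.52, and leaving out C3aR-KO replicate 2 alone gave 0.06 and 0.33. Bcl2a1b moved from 0.25 to 1.44 (SE 0.19) without the 4, a fit with 1 C3aR-KO library. In that library Bcl2a1b was at 2.93, Bcl2a1a at 4.79 and Bcl2a1d at 7.36, and the interaction of their sum was not tested. For the others the interaction was -0.36 for Bcl2l1, -0.05 for Mcl1, 0.51 for Bax, -0.19 for Bak1, -0.42 for Bid, -0.03 for Bcl2l11 and 0.23 for Bnip3l in all libraries, and lay between -0.11 (Bcl2l11) and 0.27 (Bax) without the 4. None of the 10 passed in either fit.

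The APP-KI effect in C3aR-positive microglia was also set against that in unselected microglia. Limma called 0 of 12583 genes, edgeR 0 and DESeq2 120, none of them among the 10. Bcl2a1b (1.42, 95% interval 0.25 to 2.58) and Bnip3 (1.21, 95% interval 0.23 to 2.18) differed at an unadjusted p of 0.021 and 0.020 in limma, with adjusted p = 0.40 and 0.39, where 11.8% of all genes had an unadjusted p under 0.05. The other 8 genes lay between -0.27 (Bcl2l11) and 0.42 (Bak1), with Bcl2 at 0.06, Bcl2l1 at 0.12, Mcl1 at -0.08, Bax at 0.06, Bid at -0.14 and Bnip3l at 0.08. Without APP-KI replicate 4, the 1 low library in this comparison, Bcl2a1b was at 1.46 and Bnip3 at 1.26, and none of the 10 passed. In WT, Bnip3 was at 5.26 to 8.60 in the C3aR-positive and 13.1 to 13.7 in the unselected sort, and Bcl2a1b at 0.975 to 5.78 and 6.66 to 8.49. The sum of the 3 Bcl2a1 copies overlapped between these WT groups, at 7.28 to 21.5 and 14.6 to 26.1, and its difference between sorts was not tested. In APP-KI the values were 15.6 to 38.9 and 18.4 to 25.4 for Bnip3 and 15.2 to 20.6 and 13.1 to 16.2 for Bcl2a1b. The sort and the experiment cannot be told apart, since all C3aR-positive libraries formed a library name series of their own.

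Across the 6 groups, the 3 groups with APP-KI had the 3 highest means of Bcl2, Bcl2l1, Bcl2a1b, Bax, Bnip3 and Bnip3l and the 3 lowest means of Bid. The share of all genes with such an order was not computed. Between APP-KI and WT, 43.5% of all genes did not overlap in the C3aR-positive and 29.3% in the unselected sort. The means include the 4 libraries listing under 14000 genes. For Bcl2 the order of mean scaled values was C3aR-positive APP-KI (60.8 ± 5.13, SD, n = 3), APP-KI (54.8 ± 10.5, n = 3), combined mutants (44.6 ± 3.47, n = 5), C3aR-KO (29.1 ± 29.8, n = 3), C3aR-positive WT (16.4 ± 3.53, n = 3) and WT (15.1 ± 1.99, n = 3), and each neighbouring pair in this order overlapped. For Bnip3 the combined mutants (27.7 ± 7.92, n = 5) came between C3aR-positive APP-KI (30.6 ± 13.02, n = 3) and APP-KI (22.7 ± 3.83, n = 3), and APP-KI and the next group, WT (13.4 ± 0.316, n = 3), did not overlap. For Mcl1 and Bak1, all neighbouring groups overlapped.

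Over the 20 libraries, the genes whose log2(scaled value + 1) followed each of these genes most closely were Rai14 (Pearson r = 0.96) and Tnfsf8 (0.95) for Bcl2, Ncl (0.96) and Cdc42bpa (0.94) for Bcl2l1, Relb (0.94) and Cetn2 (0.94) for Bcl2a1b, Pcnx3 (0.94) and Clec12a (0.94) for Bid and Tmem184c (0.97) and Tnni2 (0.95) for Bnip3, out of 12372 genes. For Mcl1 they were Fbxo30 (0.93) and Kat14 (0.88), for Bax Uqcrb (0.88) and Nipsnap2 (0.87), for Bak1 Nup37 (0.92) and Rcc1l (0.92), for Bcl2l11 Dtx2 (0.95) and Ice1 (0.91) and for Bnip3l Cct4 (0.91) and Syap1 (0.88). These are descriptions over libraries that share groups, depth and the libraries that stood apart, so they carry no test.

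The other genes of the pathway were counted from lists (by role, not by how they moved). In C3aR-positive microglia 13% of all genes tested rose and 9.71% fell. Of 4 other survival genes tested in C3aR-positive microglia, 2 rose and none fell: Bcl2l2, which encodes BCL-w, by 1.35 on the log2 scale (limma adjusted p = 0.040) and Bag1, a BCL-2-binding cochaperone, by 0.90 (limma adjusted p = 0.00056). Of 5 other BH3-only and effector genes, 1 rose and 1 fell: Pmaip1, which encodes NOXA, an antagonist of MCL-1, by 1.75 (limma adjusted p = 0.0016), and Bmf, a BH3-only gene, fell by 0.94 (limma adjusted p = 0.00084). Of 15 caspase pathway genes, 1 rose and 4 fell. Apaf1, the apoptosome scaffold, rose by 0.70 (limma adjusted p = 0.017), and Casp6 fell by 0.88 (limma adjusted p = 0.047) and Casp8, the initiator that cleaves BID, by 0.64 (limma adjusted p = 0.0026). The other 2 falls were the apoptosis inhibitors Birc3, by 0.57, and Cflar, by 0.42, so caspases and inhibitors of apoptosis were both among the falls. None of 8 death receptor and necroptosis genes passed, and none had an unadjusted p under 0.05, against 37.6% of all genes.

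Of 18 other mitophagy and autophagy genes, 8 rose and none fell in C3aR-positive microglia, where 13% of all genes rose and 9.71% fell. The median log2 fold change was 0.38 over the list against -0.17 over all genes. Optn, an autophagy receptor for ubiquitin-marked mitochondria, rose by 2.01 (limma adjusted p = 0.00054) and Gabarapl1, an ATG8 family member, by 1.23 (limma adjusted p = 0.027). The other 6 were Pink1, Phb2, Sqstm1, Map1lc3a, Map1lc3b and Gabarap. Of 10 transcription factors known to act on the 10 genes, Hif1a rose by 2.13 (limma adjusted p = 6.8e-05) and Foxo1, a factor known to act on Bcl2l11, fell by 1.11 (limma adjusted p = 0.0026). Epas1, the gene of HIF-2α, was at -0.40 and did not pass.

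In unselected microglia with all libraries, 3 genes of these lists rose with APP-KI and none fell, beside 2.22% and 1.93% of all genes. They were Bag1 by 0.74 (limma adjusted p = 0.021), Optn by 2.10 (limma adjusted p = 0.00076) and Hif1a by 2.11 (limma adjusted p = 0.00028). In mice lacking C3ar1 the same 3 rose, Bag1 by 0.88, Optn by 1.86 and Hif1a by 1.90, with limma adjusted p = 0.0019, 0.00049 and 0.00016. Cflar, the caspase-8 inhibitor, fell there by 0.66 (limma adjusted p = 0.012). Of all genes, 3.96% rose and 2.98% fell in that comparison. With the 4 libraries left out, Bag1, Optn and Hif1a rose by 0.71, 1.88 and 2.25 in unselected microglia and by 1.12, 2.34 and 2.65 in mice lacking C3ar1. In unselected microglia 8 of the 60 genes of the lists then rose and 11 fell, where 27.9% of all genes passed. Of the 18 mitophagy and autophagy genes 5 rose and none fell there, and of the 15 caspase pathway genes none rose and 4 fell. These counts are close to the share over all genes. The values in mice lacking C3ar1 rest on 1 C3aR-KO library, with a median log2 difference of 0.40 over the mitophagy and autophagy genes and -0.14 over the caspase pathway genes. No gene of the lists passed in either comparison of C3ar1 loss, with or without the 4 libraries. Over the lists, 1 caspase pathway gene had an unadjusted p under 0.05 in C3aR-KO against WT and none in the combined mutants against APP-KI. Over all genes these shares were 2.77% and 1.19%.

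**Figure D5:**
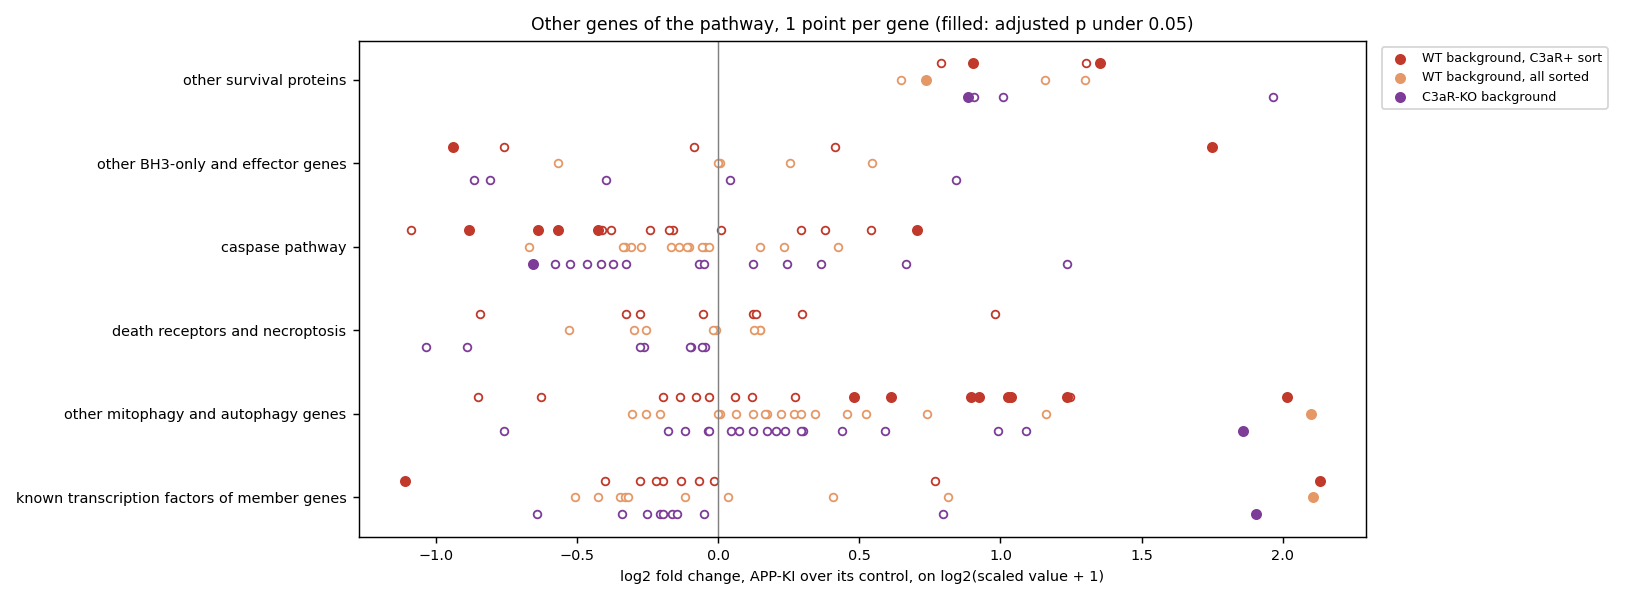
Log2 fold change of APP-KI over its control for each tested gene of 6 lists (rows), in C3aR-positive microglia, unselected microglia and C3aR-KO mice, with filled points where the limma adjusted p was under 0.05. In C3aR-positive microglia 8 of 18 mitophagy and autophagy genes are filled to the right of 0 and 4 of 15 caspase pathway genes to the left. Of all genes, 13% were higher and 9.71% lower there.

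Markers of other brain and blood cells were followed in the same libraries. The summed scaled value of 5 endothelial markers was 49.7 to 101 in C3aR-positive WT and 189.6 to 348 in APP-KI, and 64.0 to 75.3 and 207 to 279 in unselected WT and APP-KI. It was 44.6 to 88.9 in C3aR-KO and 111 to 285 in the combined mutants. The 44.6 was that of C3aR-KO replicate 2, where Bcl2 was at 62.9. Flt1 alone was at 10.7 to 22.1 in C3aR-positive WT and 155 to 313 in APP-KI, while Pecam1 was at 21.3 to 42.1 in WT and 4.07 to 8.36 in APP-KI and Cldn5 was at most 6.77 in WT and 0.568 in APP-KI, so neither rose with the sum in that sort. In the unselected sort Pecam1 was at 29.9 to 37.0 in WT and 6.92 to 20.4 in APP-KI, whereas Cldn5 was higher in APP-KI without overlap, at 1.18 to 10.3 against 0.295 to 1.03. The sum of 5 border macrophage markers was 453 to 673 in C3aR-positive WT and 176 to 385 in APP-KI. Oligodendrocyte markers summed to 85.3 to 114 in C3aR-positive WT and 154 to 167 in APP-KI, and the part of these other cells in the differences of the 10 genes was not tested. The T and NK cell markers, of which 6 of 7 were listed, summed to at most 6.19 in the C3aR-positive sort, with Cd3g and Gzma at 0 in all of its libraries. In the unselected sort the T and NK sum reached 64.4 in APP-KI replicate 5, 54.9 in C3aR-KO replicate 2, the knockout library with Bcl2 at 62.9, and 33.4 in combined mutant replicate 2, and was at most 9.00 in the others. Neutrophil markers summed to between 7.26 and 735 over the 20 libraries with wide overlap between groups, and 11 genes raised by warm dissociation to between 2019 and 6922. The 2 highest dissociation sums, 6922 and 6000.0, were those of APP-KI replicate 4 and combined mutant replicate 1, which belong to the 4 libraries listing under 14000 genes, and their part in the results was not tested. In these bulk libraries a lower share of cells that express a gene cannot be told from less RNA per cell.

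Some of these loci share exonic bases with other gene models, and the strand setting of the counting is not given in the sources used here. On mm10 annotation (GENCODE M21), Bcl2 lies at chr1:106538178-106714274, Bcl2l1 at chr2:152780668-152831728, Bnip3 at chr7:138890836-138909519 and Bid at chr6:120891930-120916853. The opposite-strand genes Ggnbp1 and Bcl2l13 share 25.5% of the exonic bases of Bak1 and 17.7% of those of Bid, the antisense model Gm45507 22.3% of those of Bnip3, and Gm45808, on the same strand, 12.2% of those of Bax. Reads in these stretches cannot be assigned to 1 gene from the deposited values.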

How the data were processed

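The study sorted CD45mid CD11b+ microglia, prepared total RNA libraries with a SMARTer Pico v3 kit that carries molecular identifiers (whether the counts used them is not given in the sources used here), and sequenced them on a NovaSeq 6000. The authors aligned reads to mm10 with TopHat v2.0.9, and their processing notes also name cutadapt, featureCounts and DESeq2. The deposited signal in each library is a read count divided by that library's 75th percentile over all listed genes, with no division by gene length, although its name says FPKM. Whole reads were recovered from 100% of values within 0.05 of a whole number, and the limit given for a count of 0 covers counting error only. No column of per-sample values was left unused, and the files hold no comparison columns of the authors.

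Here 21326 entries were joined into 21315 symbols (10 symbols had more than 1 entry, summed), multiplied by 35.1 and tested with limma 3.58.1 (trend) on log2(scaled value + 1), keeping genes that averaged 1 or more on that scale, with p-values adjusted over all of them by Benjamini-Hochberg (threshold 0.05). Because of the added 1, differences of low genes come out too small. C3aR-positive libraries were fitted alone, unselected libraries together with a library name series term, and all 12 libraries of the 4 WT and APP-KI groups for the difference between sorts without it. edgeR 4.0.16 and DESeq2 1.42.0 on recovered reads, in R 4.3.3, were alternatives, with other pseudocounts (0.1), filters, scalings, left-out libraries and a replicate block. Count models are not the main test because the deposited values are not counts. Replicates of a group differed by more than counting noise (chi-square per degree of freedom of at least 20.8). The fits of APP-KI against WT in the C3aR-positive and unselected sorts were also run on simulated counts with the same dispersion for every gene. Those counts held no libraries that stood apart, so they cannot show how the fits behave with such libraries. Depths of 13939559 to 76608464 reads limit precision for genes near 1.

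The members and gene lists were chosen with earlier results of these data known. All 10 genes are named in every comparison, with up to 2 of the largest rises and falls past the threshold per list (further calls are named too) and 2 genes of highest correlation per gene. Exonic lengths and coordinates come from GENCODE M21 and promoter sequences from RefSeq, GRCm38.p6. One gene of the microglial marker list and 1 of the caspase list are not reported here.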

Additional observations from a re-analysis of the deposited data

Results flagged for a closer look

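Among the 5 combined mutant libraries, replicate 1 lay far from the other 4 for 4 of the 10 genes by Dixon's test on log2 values. It was low for Bcl2a1b (scaled value 0.0226), Bak1 (8.94) and Bid (2.33) and high for Bcl2l11 (98.5). Chance flags about 1 in 20 groups. This library listed 12386 genes above 0, the fewest of the 20, and its part in these values was not tested beyond the fits without it.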

How the results depend on the processing

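In C3aR-positive microglia 4 or 5 of the 10 genes passed under all settings run but one: at an adjusted p of 0.0005, a stricter threshold, 1 passed (Bcl2), while the log2 differences were unchanged by construction. Leaving out single libraries gave 4 to 5 there, with 5 without the first APP-KI library. In unselected microglia the count of 0 became 1 with quantile normalization, 1 in a fit of the 2 groups alone, 2 with DESeq2, 6 without the 4 libraries listing under 14000 genes (chosen after seeing the data) and 5 without those and APP-KI replicate 5, and leaving out single libraries gave 0 to 1 (1 without APP-KI replicate 5, C3aR-KO replicate 1 or C3aR-KO replicate 2). In the combined mutants over C3aR-KO the count of 0 became 1 with a pseudocount of 0.1, a mean filter of 5, quantile normalization, median ratio scaling, no mean-variance trend or edgeR, 2 with DESeq2, 8 without the 4 libraries and 7 without those and APP-KI replicate 5, and leaving out single libraries gave 0 to 2 (2 without combined mutant replicate 1, and 1 without APP-KI replicate 4 or 5 or C3aR-KO replicate 1 or 2). The other 4 comparisons gave 0 of the 10 genes under all settings run. The cause was not tested.

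Same-numbered libraries correlated at 0.022, 0.037 and -0.012 in the C3aR-positive sort and at 0.25, 0.087 and 0.11 in unselected APP-KI and WT. In no comparison with 3 shared numbers did every library correlate best with its own number. With so few libraries per group these values show no clear pairing by number and cannot exclude it. With the replicate number as a block the counts were 4 in C3aR-positive microglia, 1 in unselected microglia and 0 in the others with shared numbers; C3aR-KO over WT and the interaction share none, so no paired fit was made there. No other count changed. These fits kept only libraries whose numbers both groups shared and had no library name series term, so the block was not their only change. For combined mutants over APP-KI only replicates 4 and 5 of each group remained, and 459 of all genes passed, against 1 in the main fit. In these fits the sign turned for Bcl2l11 (0.015) in unselected microglia and for Bcl2l1 -0.20, Mcl1 -0.058, Bcl2a1b 0.38, Bak1 0.15, Bid 0.29, Bnip3l 0.26 in the combined mutants over APP-KI.

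In combined mutants over C3aR-KO, leaving out single libraries moved Bcl2 from 0.45 to 1.89, Bnip3 from 1.00 to 2.98, Bcl2a1b from 0.97 to 2.53 and Bid from -1.59 to -0.44. Some log2 differences that did not pass with all libraries changed sign between settings. With median ratio scaling the sign turned for Mcl1 0.035 in APP-KI over WT in C3aR-positive microglia, Bcl2l11 0.030 in APP-KI over WT in unselected microglia, Bcl2l11 0.0054 in combined mutants over C3aR-KO and Mcl1 0.026 in the difference between sorts. With DESeq2 the sign turned for Mcl1 0.026 in APP-KI over WT in C3aR-positive microglia, Bcl2l11 0.054 in APP-KI over WT in unselected microglia, Bcl2l1 -0.017 in combined mutants over APP-KI, Bcl2l11 0.00078 in combined mutants over C3aR-KO and Mcl1 0.0068 in the difference between sorts. With quantile normalization the sign turned for Mcl1 0.028 and Bcl2l11 0.035 in APP-KI over WT in unselected microglia and Bcl2l1 -0.045 and Mcl1 -0.032 in combined mutants over APP-KI. With edgeR the sign turned for Bcl2l11 0.033 in APP-KI over WT in unselected microglia and Bcl2l1 -0.019 in combined mutants over APP-KI. With no library series term the sign turned for Bcl2l11 0.015 in APP-KI over WT in unselected microglia, Bcl2l1 -0.052 and Bnip3l 0.044 in combined mutants over APP-KI and Bak1 0.015 in the interaction with C3ar1. In a fit of the 2 groups alone the sign turned for Bcl2l11 0.0044 in C3aR-KO over WT. In the fit without the 4 libraries the sign turned for Mcl1 -0.11, Bak1 0.020 and Bcl2l11 0.13 in C3aR-KO over WT, Bcl2a1b 0.21, Bak1 0.0059, Bcl2l11 0.021 and Bnip3l 0.039 in combined mutants over APP-KI, Mcl1 0.054 in combined mutants over C3aR-KO, Mcl1 0.21 and Bid 0.18 in the interaction with C3ar1 and Mcl1 0.063 in the difference between sorts. Leaving out 1 library at a time, or the 4 libraries with APP-KI replicate 5, gave log2 ranges that crossed 0 for Bak1 -0.22 to 0.13, Bcl2l11 -0.26 to 0.15 and Mcl1 -0.18 to 0.059 in APP-KI over WT in unselected microglia, and for Bak1 -0.39 to 0.24, Bid -0.56 to 0.16, Bcl2 -0.38 to 1.04, Mcl1 -0.10 to 0.22 and Bcl2l11 -0.25 to 0.12 in C3aR-KO over WT, and for Bax -0.034 to 0.063, Bcl2l11 -0.27 to 0.085, Bnip3l -0.10 to 0.075, Bcl2l1 -0.15 to 0.17, Mcl1 -0.075 to 0.17, Bcl2a1b -1.37 to 0.25, Bak1 -0.45 to 0.11, Bid -0.99 to 0.16, Bnip3 -0.11 to 0.27 and Bcl2 -0.42 to 0.064 in combined mutants over APP-KI, and for Bak1 -0.57 to 0.097, Mcl1 -0.23 to 0.047 and Bcl2l11 -0.31 to 0.12 in combined mutants over C3aR-KO, and for Mcl1 -0.18 to 0.16, Bcl2a1b -0.31 to 1.49, Bcl2l11 -0.22 to 0.17, Bak1 -0.46 to 0.26, Bcl2 -1.22 to 0.060 and Bid -0.91 to 0.53 in the interaction with C3ar1, and for Bcl2 -0.093 to 0.36, Mcl1 -0.22 to 0.063, Bax -0.064 to 0.23, Bid -0.52 to 0.35, Bcl2l1 -0.011 to 0.32, Bnip3l -0.059 to 0.16 and Bcl2l11 -0.41 to 0.00057 in the difference between sorts.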
